A study of Homo sapiens with 9 samples.

Results

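The glutathione S-transferases described here are 10 genes taken by symbol from the deposited counts of 28216 genes, and 10 of 10 were found. They cover the pi class (GSTP1), the mu class (GSTM1, GSTM2, GSTM3 and GSTM4), the omega and kappa classes (GSTO1, GSTK1) and the membrane-bound microsomal enzymes (MGST1, MGST2, MGST3). RNA was sequenced from 9 libraries of 2 established lines, both grown from prostate cancer metastases and labelled WT. PC3 cells, which are androgen-insensitive, had no treatment and grew in F12K medium with serum (3 libraries). LNCaP cells of clone FCG, which are androgen-sensitive, were first moved to phenol red-free RPMI with charcoal-stripped serum. They then received androgen at 10 nM (3 libraries) or vehicle, 0.01% ethanol (3 libraries), for 48 h. The androgen is dihydrotestosterone (DHT) in the sample labels and R1881 in the main text of the paper. Cell line and culture medium cannot be told apart in these groups, and each line stands for 1 tumour.

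Glutathione S-transferases join the thiol of glutathione to electrophiles, lipid peroxidation products and drugs, and the conjugates are then pumped out of the cell. Soluble classes work in the cytosol, the kappa enzyme in mitochondria and peroxisomes, and the microsomal enzymes within membranes, where they also reduce lipid hydroperoxides. In the prostate, GSTP1 is known as a gene of basal cells whose promoter is methylated in most carcinomas. DNA methylation was not measured in these libraries.

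Between 17397706 and 25640325 counts fell on genes in a library (median 21434125). Levels are given as CPM (counts scaled to library size by TMM factors over the 9 libraries). Where a library has a count of 0, the level may still be as high as 0.118 CPM in the deepest and 0.165 in the shallowest library. This limit of 3 counts covers counting error only. Of 9 luminal markers, KLK2 had 0 counts in PC3 libraries, and the summed level was 912 to 1260 CPM there, 12411 to 13606 with androgen and 3823 to 4232 with vehicle. HOXB13 of this list had its highest mean in PC3 cells, at 593 ± 187 CPM, with 421 ± 14.5 with androgen and 545 ± 9.02 with vehicle (SD, n = 3 each). Of 9 markers of PC3 cells, VIM and CAV1 among them, the sum was 5691 to 6223 CPM in PC3 libraries, 2686 to 3022 with androgen and 622 to 636 with vehicle. This list and the luminal one share the keratins KRT8 and KRT18, at 1603 ± 88.8 and 1223 ± 92.6 CPM with androgen and 269 ± 7.43 and 334 ± 5.27 with vehicle (SD, n = 3 each). Both keratins were lower in PC3 cells, at 129 ± 1.83 and 283 ± 2.19 CPM (SD, n = 3 each). Summed markers of fibroblasts and endothelium stayed at or under 55.3 and 18.4 CPM in every library. Those of immune cells were 31.8 to 34.9 CPM in PC3 libraries, 15.9 to 22.2 with androgen and 1.73 to 2.36 with vehicle. Nearly all of this was CD68, at 32.6 ± 1.59, 18.6 ± 3.20 and 1.86 ± 0.387 CPM (SD, n = 3 each). PTPRC had 4 to 7 counts in PC3 libraries and 0 in LNCaP libraries. The part of these differences in the results was not tested. CDH5 and CD3E were at 0 in all 9 libraries. PC3 replicate 3 stood apart from the other PC3 libraries, with a chi-square per degree of freedom over genes of 31.5 and 54.5, against 11.6 between replicates 1 and 2 and 2.26 to 5.53 within the LNCaP groups. Without it, 7 of 9 tested members were called against androgen (46.5% of all genes) and 7 of 9 against vehicle (42.7% of all genes). GSTK1, highest in that library, then had log2 fold changes of 1.39 and 1.38.

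The sequences upstream of 4 genes are shown, because GSTP1, GSTM4 and GSTM2 were near 0 in LNCaP cells and GSTM3, their neighbour or relative, was not. Each line holds the 250 bases before the RefSeq start site on GRCh38.p14, 5′ to 3′ on the gene's strand, with every CpG in capitals. GSTP1 is chr11:67583562-67583811 (plus strand), GSTM4 chr1:109655849-109656098 (plus), GSTM2 chr1:109667807-109668056 (plus) and GSTM3 chr1:109741039-109741288 (minus).
GSTP1: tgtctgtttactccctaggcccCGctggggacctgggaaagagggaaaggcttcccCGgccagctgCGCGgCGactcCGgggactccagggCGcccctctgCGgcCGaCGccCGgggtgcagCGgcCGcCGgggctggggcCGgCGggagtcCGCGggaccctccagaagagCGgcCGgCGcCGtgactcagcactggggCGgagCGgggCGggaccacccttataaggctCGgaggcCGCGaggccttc
GSTM4: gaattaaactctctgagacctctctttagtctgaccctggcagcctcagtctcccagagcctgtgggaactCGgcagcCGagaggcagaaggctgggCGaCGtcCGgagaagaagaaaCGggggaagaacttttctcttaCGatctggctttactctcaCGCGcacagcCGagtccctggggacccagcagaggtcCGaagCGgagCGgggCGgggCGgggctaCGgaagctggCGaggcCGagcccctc
GSTM2: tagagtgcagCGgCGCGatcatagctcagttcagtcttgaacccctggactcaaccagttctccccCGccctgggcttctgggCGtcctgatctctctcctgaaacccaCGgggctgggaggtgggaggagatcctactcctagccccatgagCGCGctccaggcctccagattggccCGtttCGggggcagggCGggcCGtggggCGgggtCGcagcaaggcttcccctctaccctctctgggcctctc
GSTM3: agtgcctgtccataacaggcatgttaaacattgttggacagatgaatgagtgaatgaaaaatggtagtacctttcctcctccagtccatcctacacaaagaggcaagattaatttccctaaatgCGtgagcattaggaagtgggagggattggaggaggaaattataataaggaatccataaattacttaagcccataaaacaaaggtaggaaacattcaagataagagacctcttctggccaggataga

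GSTP1 had 28 CpG in this window, and 15.9% of the 35116 promoters of the same length hold at least as many. GSTM4 and GSTM2 had 18 and 14, against a median of 11 over all promoters. GSTM3 had 1, and 14.7% of promoters hold at most as many. Genes that were well expressed in LNCaP cells also had counts above the median, with 14 in GSTO1, 15 in GSTK1 and 16 in MGST3. The 3 starts of MGST1 had 12, 19 and 3. GSTM1, with 0 counts in the LNCaP libraries, had 19. GSTM2, near 0 in LNCaP cells, had as many CpG as GSTO1, and a link between the number of CpG and the level was not tested. The sequence TGACTCA, searched on both strands, occurred in the GSTP1 window and in 4.203% of all promoters. The core TGACNNNGC of the element bound by NRF2, also searched on both strands, occurred in GSTP1, where it overlaps TGACTCA, in GSTM1 and in GSTO1, and in 10.9% of all promoters. A match of letters says nothing about binding. MGST2 had no entry in the table of promoters.

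PC3 and LNCaP cells held similar summed levels of the 10 transcripts per length but drew them from different genes. Levels of different genes were compared as CPM per kilobase of the canonical GENCODE transcript. The sum over the 10 genes was 552 ± 5.85 CPM per kb (SD, n = 3) in PC3 cells, 546 ± 22 with androgen and 569 ± 16.8 with vehicle (SD, n = 3 each). Libraries of PC3 cells (546 to 558) lay within the range of the androgen-treated ones (525 to 569) and overlapped the vehicle-treated ones (551 to 585). GSTP1 made up 34.0 ± 2.43% of this sum in PC3 cells, 0.162 ± 0.122% with androgen and 0.0442 ± 0.0388% with vehicle (SD, n = 3 each). MGST1 made up 20.4 ± 1.31% in PC3 cells, 52.8 ± 1.23% with androgen and 53.4 ± 1.32% with vehicle (SD, n = 3 each). MGST2 added 4.42 ± 0.207% in PC3 cells, 18.6 ± 0.445% with androgen and 20.9 ± 0.0752% with vehicle (SD, n = 3 each). Without division by length, the 10 genes summed to 527 ± 10.8 CPM in PC3 cells, 548 ± 20.3 with androgen and 585 ± 10.9 with vehicle (SD, n = 3 each). PC3 cells then had the lowest mean.

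**Figure D1:**
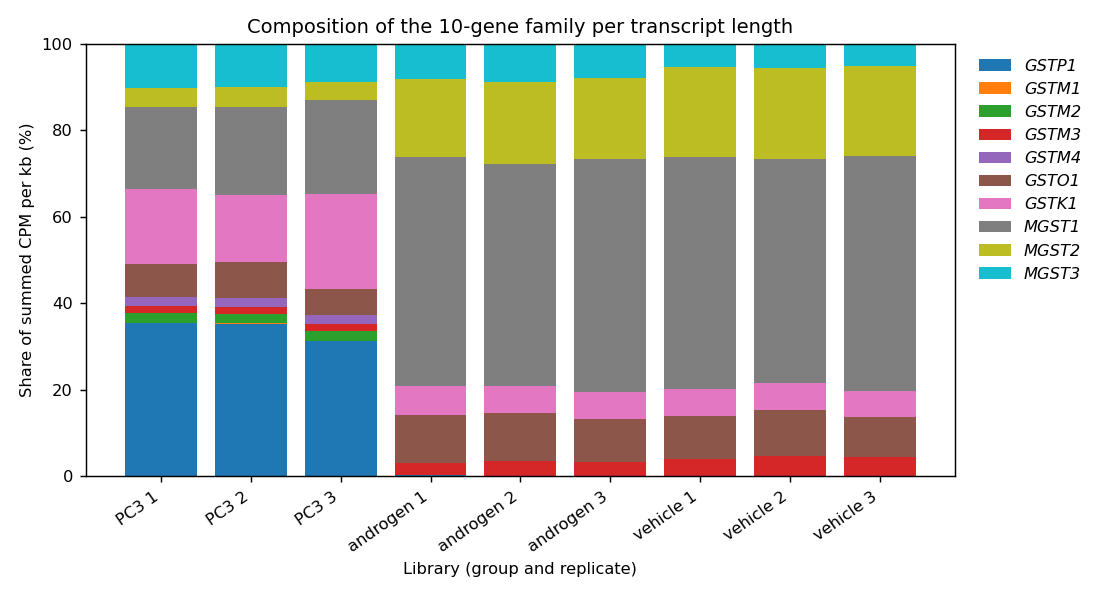
Share of each of the 10 genes in their summed CPM per kb, in percent, as 1 stacked bar per library. GSTP1 and GSTK1 fill a large share of the PC3 bars, and MGST1 and MGST2 together fill most of the 6 LNCaP bars.

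In PC3 cells, the order per kb was GSTP1, MGST1, GSTK1, MGST3, GSTO1, MGST2, GSTM2, GSTM4, GSTM3 and GSTM1, from 188 ± 12.1 to 0.0701 ± 0.0343 CPM per kb (SD, n = 3 each). Neighbours in this order did not overlap between libraries except MGST1 (113 ± 7.76) and GSTK1 (101 ± 19.1). Both LNCaP groups began with MGST1, MGST2 and GSTO1 and had GSTM3 in place 6, with GSTP1, GSTM2, GSTM4 and GSTM1 after it. Places 4 and 5 went to MGST3 and GSTK1 with androgen and to GSTK1 and MGST3 with vehicle, again without overlap between neighbours. MGST1 reached 288 ± 18.2 CPM per kb with androgen and 304 ± 15.5 with vehicle (SD, n = 3 each).

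**Figure D2:**
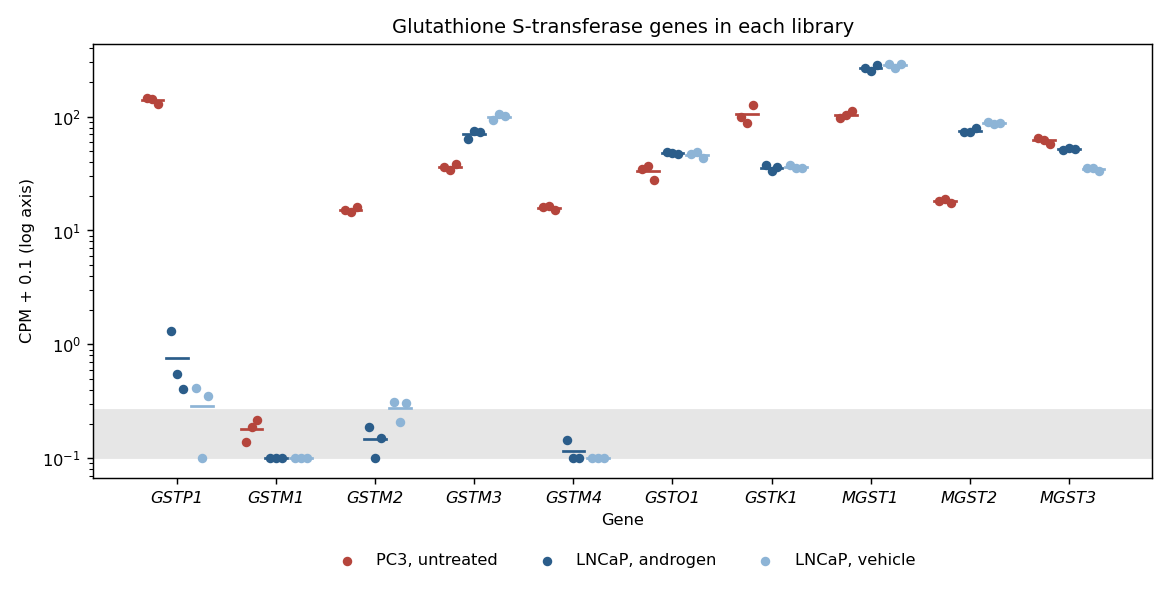
CPM + 0.1 of each gene on a log axis, with 1 point per library and a bar at the mean of the 3 libraries of a group; the grey band spans 0 to 3 counts in the smallest library. GSTP1, GSTM2 and GSTM4 separate PC3 from both LNCaP groups by far more than the spread between libraries, and GSTM1 lies in the band throughout.

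The first question is how PC3 cells differ from LNCaP cells, and both LNCaP groups were used, each in its own fit. The PC3 libraries enter both of these comparisons, and each LNCaP group also enters the comparison with the other. Fewer cells that use a gene and less RNA per cell cannot be told apart in such bulk libraries. A gene was tested where more than 3 CPM were reached in at least 3 of the 6 libraries, and called at an adjusted p under 0.05 (edgeR's quasi-likelihood test) with a fold change of at least 2. Against androgen-treated LNCaP cells, 9 of 10 members were tested and 6 were called, where 46% of all 12541 genes tested were called. Higher in PC3 cells were 4 (24% of all genes) and lower were 2 (22.1% of all genes). Against vehicle-treated LNCaP cells, 9 were tested and 7 were called, where 43.2% of all 12686 genes were called. Here 4 were higher (22.2% of all genes) and 3 lower (21% of all genes). GSTP1, GSTM2 and GSTM4 passed the filter only through the PC3 libraries. The median log2 fold change of the 9 tested members was 0.25 and 0.85 in the 2 comparisons, and that of all genes was 0.04 and 0.03. These member medians include GSTP1, GSTM2 and GSTM4, whose direction the filter fixed, so they show no shift of the family. Among the other tested members, GSTK1 and MGST3 were higher in PC3 cells in both comparisons, and GSTM3, GSTO1, MGST1 and MGST2 were lower.

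GSTP1 (ENSG00000084207.18, chromosome 11, 67583742 to 67586656, plus strand, 7 exons), the pi-class enzyme, was abundant in PC3 cells and near absent in LNCaP cells. PC3 replicates 1, 2 and 3 had 146, 143 and 129 CPM, from 3261 to 3697 counts. Androgen-treated replicates had 1.21, 0.444 and 0.302 CPM, from 27, 9 and 6 counts, and vehicle-treated ones 0.315, 0 and 0.254 CPM, from 6, 0 and 5 counts. The lowest PC3 library thus lay far above the highest LNCaP library, with 1 androgen-treated library above the other 5. The log2 fold change in PC3 cells was 7.69 (standard error, SE, of 0.28, with an edgeR adjusted p = 1.25e-07) against androgen and 9.48 (SE 0.28, edgeR adjusted p = 5.40e-08) against vehicle. GSTP1 passed the filter only through its high level in PC3 cells, so these p-values add no separate support. Leaving out each library gave 7.35 to 8.54 against androgen, with 8.54 without androgen-treated replicate 1, and 8.93 to 10.01 against vehicle. Of the 74-base stretches of its canonical transcript, 0% were found at a second place in the genome or in another gene's transcripts.

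The few GSTP1 counts of LNCaP libraries were set beside other transcripts of PC3 cells. Outside the family, 203 genes had at least 50 CPM in PC3 cells and a mean of at most 1% of that in LNCaP cells. They were chosen on these same values. The median of these genes was 0.592% of the PC3 level in androgen-treated replicate 1, 0.142% and 0.110% in replicates 2 and 3, and 0.328%, 0.106% and 0.136% in vehicle-treated replicates 1 to 3. GSTP1 stood at 0.868%, 0.319% and 0.217% of its PC3 level in the androgen-treated replicates and at 0.226%, 0% and 0.183% in the vehicle-treated ones. GSTP1 and the 203 genes were both highest in androgen-treated replicate 1, and GSTP1 lay between their quartiles in 5 of the 6 libraries and at the lower quartile, 0%, in vehicle-treated replicate 2. The part of PC3 RNA in these counts was not tested.

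**Figure D3:**
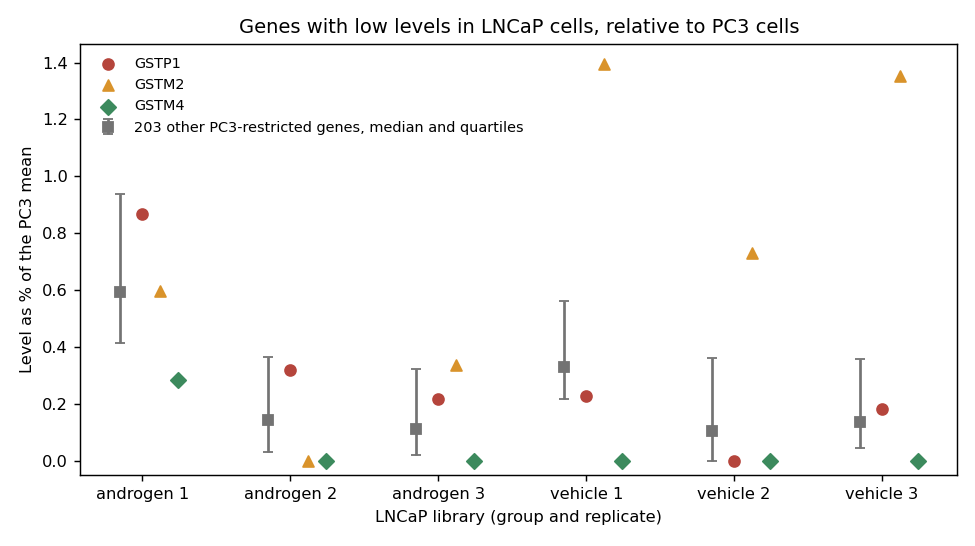
Level in each LNCaP library as a percentage of the PC3 mean, for GSTP1, GSTM2 and GSTM4 and, as grey squares with quartiles, for 203 other genes restricted to PC3 cells. GSTP1 points lie within or on the grey quartiles of every library, and GSTM2 lies above them in the 3 vehicle-treated libraries and, at 0.335%, just above them in androgen-treated replicate 3.

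By the rule set for likeness (smallest root mean square difference of centred log2 CPM, with 0.5 CPM added, over the 9 libraries and 12843 genes), SYT16, AOX1, ALDH7A1 and ANXA3 were among the 5 genes closest to GSTP1. Their differences ranged from 0.22 to 0.25 on the log2 scale, and Pearson's r from 0.998 to 0.999, as a description over 9 libraries that fall into 2 lines. AOX1, an aldehyde oxidase, ranged over 3089 to 3628 counts in the PC3 line and over 3 to 43 in the LNCaP line. SYT16, ALDH7A1 and ANXA3 had at most 16, 25 and 10 counts in an LNCaP library.

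The mu-class genes GSTM1 to GSTM4 lie together on chromosome 1, from 109656099 to 109741038, within 84.9 kb. GSTM4 (ENSG00000168765.19, 109656099 to 109665496, plus strand) had 16, 16.4 and 14.9 CPM in PC3 replicates, from 377 to 406 counts. It had 1 count in androgen-treated replicate 1 and 0 in the other 5 LNCaP libraries. Both comparisons called GSTM4, which passed the filter only through the PC3 libraries. PC3 levels were at least 95.8-fold higher than with vehicle, taking 3 counts in the smallest vehicle library as the limit. Against androgen, 1161 summed counts in PC3 cells stood against 1, a ratio of 984 per library size with an exact 95% counting interval of 176 to 38894. This interval pools the libraries of a group and leaves out the spread between them.

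GSTM2 (ENSG00000213366.13, 109668022 to 109709551, plus strand) had 14.9, 14.3 and 15.9 CPM in PC3 replicates, from 329 to 402 counts. LNCaP libraries held 2, 0 and 1 counts with androgen and 4, 2 and 4 with vehicle. No PC3 library overlapped an LNCaP library. Against vehicle, the log2 fold change in PC3 cells was 6.40 (SE 0.19, edgeR adjusted p = 5.54e-08). GSTM2 also passed the filter only through the PC3 libraries, so this p-value adds no separate support. Against androgen, 1109 summed counts stood against 3, a ratio of 313 with an exact 95% counting interval of 107 to 1521, and the gene was called. Androgen-treated replicate 1 held 2 of these 3 counts. The counting interval again leaves out the spread between libraries. GSTM2 reached 1.40%, 0.731% and 1.35% of its PC3 level in the vehicle-treated replicates, above the quartiles of the 203 PC3-restricted genes there. It stood at 0.596%, 0% and 0.335% in the androgen-treated ones.

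GSTM1 (ENSG00000134184.13, 109687814 to 109709039, plus strand) had 1, 2 and 3 counts in PC3 replicates and 0 in the 6 LNCaP libraries. No library exceeded the limit of 3 counts, so no fold change is given, and the gene did not pass the filter. Without a filter it was called in both comparisons (edgeR adjusted p = 0.0432 against androgen and 0.0476 against vehicle), on these 6 counts in all. Reads of GSTM1 and GSTM2 are hard to assign. Of the 74-base stretches of their canonical transcripts, 51.3% and 40.9% also occur elsewhere, 41.0% of those of GSTM1 in transcripts of GSTM2, and the annotated spans overlap on the same strand. GSTM4 shares 9.69% and GSTM3 5.19%, so the levels of GSTM1 and GSTM2 are the more uncertain ones.

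GSTM3 (ENSG00000134202.12, 109733932 to 109741038, minus strand) went the other way within the same cluster. PC3 replicates had 36.1, 33.8 and 37.98 CPM, androgen-treated replicates 63.5, 74.6 and 73.4, and vehicle-treated replicates 92.7, 104 and 101. The 3 groups did not overlap, with PC3 lowest and vehicle highest. In PC3 cells the log2 fold change was -1.44 (SE 0.07, edgeR adjusted p = 5.08e-07) against vehicle, and was called. Against androgen it was -0.97 (SE 0.08, edgeR adjusted p = 7.72e-06), just under the fold change of 2. It crossed that threshold without PC3 replicate 3 (-1.01) or without androgen-treated replicate 1 (-1.02).

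GSTO1 (ENSG00000148834.13, chromosome 10, 104235356 to 104267459), the omega-class enzyme that also reduces dehydroascorbate, differed little between the lines. It had 34.5, 36.4 and 27.7 CPM in PC3 replicates, 48.6, 47.7 and 46.7 with androgen and 47.3, 48.4 and 42.9 with vehicle. Every PC3 library was below every LNCaP library. PC3 cells showed a log2 fold change of -0.53 (SE 0.12, edgeR adjusted p = 0.00290) against androgen and -0.47 (SE 0.12, edgeR adjusted p = 0.00682) against vehicle, both under the fold change of 2.

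GSTK1 (ENSG00000197448.14, chromosome 7, 143244093 to 143270854), the kappa-class enzyme, was higher in PC3 cells. It had 98.9, 87.8 and 126 CPM in PC3 replicates, 37.3, 33.1 and 36.2 with androgen and 37.4, 35.3 and 35.5 with vehicle. The lowest PC3 value was above the highest LNCaP value, and PC3 replicates spread more than LNCaP replicates. PC3 cells showed a log2 fold change of 1.55 against androgen (SE 0.13, edgeR adjusted p = 1.04e-05) and 1.55 against vehicle (SE 0.13, edgeR adjusted p = 9.14e-06).

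Of the membrane-bound enzymes, MGST1 and MGST2 were lower in PC3 cells and MGST3 was not. MGST1 (ENSG00000008394.13, chromosome 12, 16347142 to 16609259), a glutathione peroxidase of the endoplasmic reticulum and outer mitochondrial membrane, had 97.5, 103 and 112 CPM in PC3 replicates. It had 266, 250 and 284 CPM with androgen and 291, 264 and 287 with vehicle. The log2 fold change in PC3 cells was -1.35 (SE 0.08, edgeR adjusted p = 9.91e-07) against androgen and -1.41 (SE 0.07, edgeR adjusted p = 8.36e-07) against vehicle.

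MGST2 (ENSG00000085871.9, chromosome 4, 139665768 to 139740745), which can also make leukotriene C4, had 18.1, 18.7 and 17.4 CPM in PC3 replicates. LNCaP replicates had 72.7, 73.6 and 79.1 with androgen and 90.1, 85.5 and 88.3 with vehicle, and no groups overlapped. The log2 fold change in PC3 cells was -2.05 (SE 0.07, edgeR adjusted p = 1.18e-07) against androgen and -2.26 (SE 0.07, edgeR adjusted p = 6.17e-08) against vehicle. It was the largest fall among the members in both comparisons.

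MGST3 (ENSG00000143198.13, chromosome 1, 165631213 to 165661796) had 64.7, 62.8 and 57.2 CPM in PC3 replicates, 50.9, 53.4 and 51.7 with androgen and 35.5, 35.3 and 33.1 with vehicle. PC3 was highest and vehicle lowest, without overlap. The log2 fold change in PC3 cells was 0.25 (SE 0.07, edgeR adjusted p = 0.0141) against androgen and 0.85 (SE 0.08, edgeR adjusted p = 1.82e-05) against vehicle, both under the fold change of 2. Without androgen-treated replicate 3 the first adjusted p from edgeR was 0.0550, and over all its alternatives it ranged from 0.00119 to 0.0550.

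**Figure D4:**
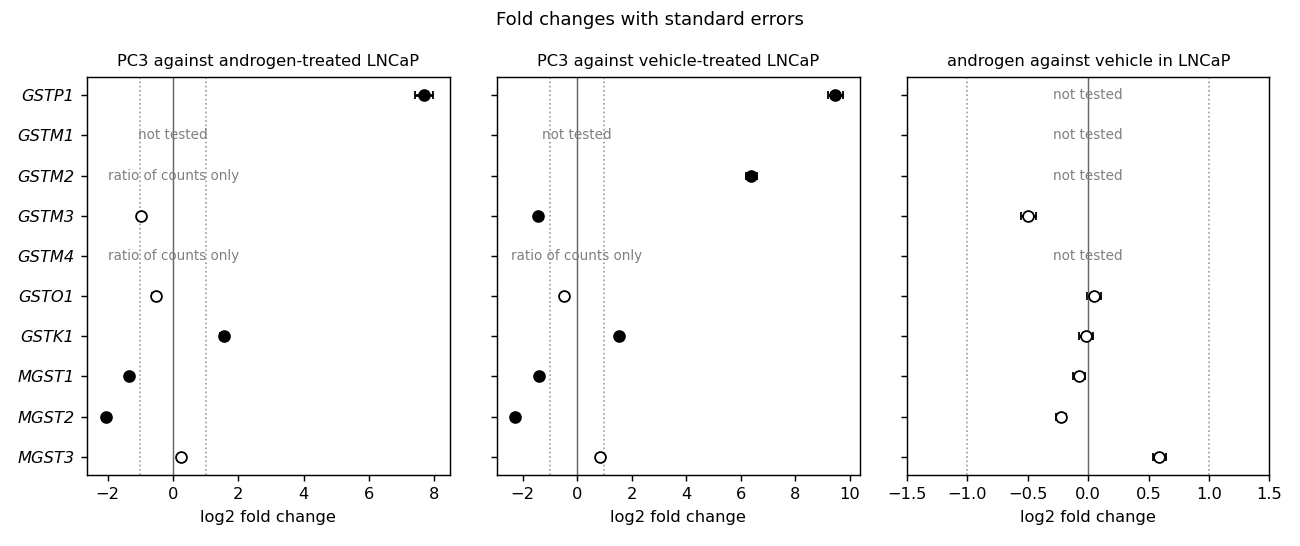
Log2 fold change of each tested member in 3 comparisons, with standard errors as bars, filled points where called and dotted lines at the fold change of 2. Members with a group of at most 3 counts per library show no point. GSTP1 stands at 7.69 and 9.48 in the comparisons of the lines, and no member is filled in the comparison of androgen with vehicle.

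The second question is what androgen changed in LNCaP cells. Of 6 members tested, 0 were called with edgeR and 0 with the DESeq2 Wald test, where 14% of all 11697 genes were called, 6.54% higher and 7.49% lower with androgen. At an unadjusted p under 0.05, and equally at an adjusted p under 0.05, 3 of the 6 passed, with changes below the fold change of 2. Of all genes, 76.5% passed the unadjusted and 74.9% the adjusted threshold, and 6 members are too few to tell their share from that background. The DESeq2 Wald test called 14% of all genes at the fold change of 2. MGST3 was higher with androgen in 3 of 3 libraries, at 52.0 ± 1.25 against 34.6 ± 1.33 CPM (SD, n = 3 each), a log2 fold change of 0.59 (SE 0.05, edgeR adjusted p = 2.59e-07). GSTM3 was lower in 3 of 3, at 70.5 ± 6.06 against 99.4 ± 6.04 CPM (SD, n = 3 each), a log2 fold change of -0.50 (SE 0.06, edgeR adjusted p = 7.16e-06). MGST2 was lower in 3 of 3, at 75.1 ± 3.46 against 87.9 ± 2.29 CPM (SD, n = 3 each), a log2 fold change of -0.23 (SE 0.04, edgeR adjusted p = 0.000462). The LNCaP groups did not overlap for MGST3, GSTM3 and MGST2, nor for GSTM2, with 3 against 10 summed counts. How common groups without overlap are among all genes was not counted. Without a filter on low counts, GSTM2 had a log2 fold change of -1.72 (SE 0.92, edgeR adjusted p = 0.131) and was not called.

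For the other tested members, the 2 LNCaP groups overlapped. MGST1 had a log2 fold change of -0.07 (SE 0.05, edgeR adjusted p = 0.201), GSTO1 of 0.05 (SE 0.06, edgeR adjusted p = 0.446) and GSTK1 of -0.02 (SE 0.06, edgeR adjusted p = 0.788). With the replicate number as a block, which pairs the LNCaP libraries, the adjusted p of MGST1 from edgeR was 0.0479 at the same -0.07, within a range of 0.0479 to 0.593 over its alternatives. Over all alternatives, this block among them, the adjusted p (edgeR or DESeq2) was at most 3.44e-05 for MGST3, 0.000346 for GSTM3 and 0.00508 for MGST2. For GSTO1 and GSTK1 it was at least 0.247 and 0.399. GSTP1, GSTM1, GSTM2 and GSTM4 were under the filter in both groups. Without any filter on low counts, GSTP1 had a log2 fold change of 1.78 with androgen (SE 0.62, edgeR adjusted p = 0.0193). Without androgen-treated replicate 1, the library with the highest level of the 203 PC3-restricted genes, it was 0.95 (edgeR adjusted p = 0.328), and the part of that library in the difference was not tested beyond this. The GSTP1 call was also lost without vehicle-treated replicate 2 (1.24, edgeR adjusted p = 0.111) and without vehicle-treated replicate 3 (2.04, edgeR adjusted p = 0.0527). Over its alternatives the adjusted p ranged from 0.00224 to 0.328.

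Around the family, 5 gene lists were followed with the same fits: other glutathione transferases, glutathione synthesis and recycling, export and processing of conjugates, the NRF2 regulators and targets, and the DNA methylation machinery. Each is given with its count and median log2 fold change, against the medians of all genes of 0.04, 0.03 and -0.01 in the comparisons of PC3 with androgen, PC3 with vehicle and androgen with vehicle. Lists were not tested as sets. From each list, the genes named rose or fell most by fold among called genes with a mean above 3 CPM, and largest is meant within that limit.

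Among 17 other glutathione transferases, 16 were in the counts and 6, 5 and 5 were tested. PC3 cells had 1 higher and 3 lower against androgen (median -1.31), and 1 and 3 against vehicle (median -1.03). GSTO2, the second omega-class gene, had 10.6 ± 0.861 CPM in PC3 cells and 1.97 ± 0.309 with androgen (SD, n = 3 each), a log2 fold change of 2.42 (SE 0.16, edgeR adjusted p = 2.35e-06). GSTZ1, which works in tyrosine breakdown, had 16.2 ± 3.02 and 64.7 ± 2.50 CPM (SD, n = 3 each), a log2 fold change of -1.996 (SE 0.13, edgeR adjusted p = 2.43e-06). GSTA1, an alpha-class gene, had 0 to 1 counts in PC3 libraries, 66 to 91 with androgen and 197 to 222 with vehicle. GSTA1 was the 1 called gene of this list between the LNCaP groups, at 3.68 ± 0.374 CPM with androgen and 10.9 ± 1.12 with vehicle (SD, n = 3 each), a log2 fold change of -1.56 (SE 0.13, edgeR adjusted p = 1.26e-07). Its transcript shares 13.9% of its 74-base stretches with other places.

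Glutathione synthesis and recycling had 19 of 22 genes tested, with 4 higher and 4 lower in PC3 cells against either LNCaP group (medians -0.16 and -0.17). GLRX, the thiol reductase glutaredoxin, had 94.1 ± 21.1 CPM in PC3 cells and 6.66 ± 0.868 with androgen (SD, n = 3 each), a log2 fold change of 3.82 (SE 0.18, edgeR adjusted p = 4.21e-07). GSR, glutathione reductase, had 56.3 ± 5.16 and 503 ± 16.4 CPM (SD, n = 3 each), a log2 fold change of -3.16 (SE 0.09, edgeR adjusted p = 5.11e-08). Against vehicle, the largest fall was GGCT, which clears gamma-glutamyl peptides, with a log2 fold change of -2.33 (SE 0.21, edgeR adjusted p = 1.89e-05). GGCT shares 33.9% of its stretches. With androgen, 1 gene was higher and 1 lower (median 0.25). GLRX2, the mitochondrial glutaredoxin, rose from 19.1 ± 1.58 to 52.0 ± 2.33 CPM (SD, n = 3 each), and SLC1A1, a carrier of glutamate and cysteine, fell from 13.4 ± 2.43 to 5.46 ± 1.36 CPM (SD, n = 3 each).

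Of 23 genes of conjugate export and processing, 14, 14 and 12 were tested. PC3 cells had 5 higher and 5 lower against androgen (median -0.05) and 5 and 4 against vehicle (median -0.28). ABCC3, an export pump, had 169 ± 91.4 CPM in PC3 cells (SD, n = 3), from 2407 to 6921 counts, against 2 to 14 counts with androgen and 0 to 3 with vehicle. GGT1, which cleaves extracellular glutathione, had 14 to 29 counts in PC3 libraries, 457 to 686 with androgen and 217 to 266 with vehicle, and 88.0% of its stretches occur elsewhere. Between the LNCaP groups, 3 of the 12 were called, each higher with androgen (median 0.19), where 6.54% of all genes were called higher. ABCC4, another export pump, rose from 119 ± 11.04 to 825 ± 52.0 CPM (SD, n = 3 each), a log2 fold change of 2.79 (SE 0.06, edgeR adjusted p = 7.19e-13).

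NRF2, encoded by NFE2L2, is the factor that drives many glutathione genes. Of 27 genes in its list, 24 were tested in each comparison with PC3 cells, and 4 were higher and 4 lower against androgen (median 0.14), and 8 and 1 against vehicle (median 0.74). MAFF, a small partner of NRF2, had 41.8 ± 4.66 CPM in PC3 cells, 7.17 ± 1.11 with androgen and 1.06 ± 0.200 with vehicle (SD, n = 3 each). Its log2 fold change in PC3 cells was 2.54 against androgen (edgeR adjusted p = 1.25e-06) and 5.33 against vehicle (edgeR adjusted p = 5.58e-08). RBX1, part of the ligase that degrades NRF2, had the largest fall against androgen (-1.28, edgeR adjusted p = 4.92e-06), and EPHX1, an epoxide hydrolase, against vehicle (-1.23, edgeR adjusted p = 8.93e-06). Between the LNCaP groups, 3 of 23 were called, each higher with androgen (median 0.29), where 6.54% of all genes were called higher. MAFF was at the top (2.77, edgeR adjusted p = 3.24e-08).

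The DNA methylation machinery had 15 of 16 genes tested. PC3 cells had 3 higher and 1 lower against androgen (median 0.09) and 1 higher and 3 lower against vehicle (median -0.40). TET1, which oxidises methylcytosine, was highest by fold against androgen (1.98, edgeR adjusted p = 1.07e-05), and UHRF2, which binds modified cytosine, against vehicle (1.38, edgeR adjusted p = 1.11e-05). TDG, a glycosylase in demethylation, had the largest fall in both, from 97.3 ± 5.19 with androgen and 101 ± 0.997 with vehicle to 34.7 ± 1.49 CPM in PC3 cells (SD, n = 3 each), and shares 38.1% of its stretches. Between the LNCaP groups, 4 were called, each lower with androgen (median -0.50), where 7.49% of all genes were called lower. UHRF1, the partner of the maintenance methyltransferase DNMT1, fell from 44.4 ± 3.21 to 12.9 ± 1.34 CPM (SD, n = 3 each), a log2 fold change of -1.78 (SE 0.08, edgeR adjusted p = 4.56e-10), and shares 49.3% of its stretches.

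**Figure D5:**
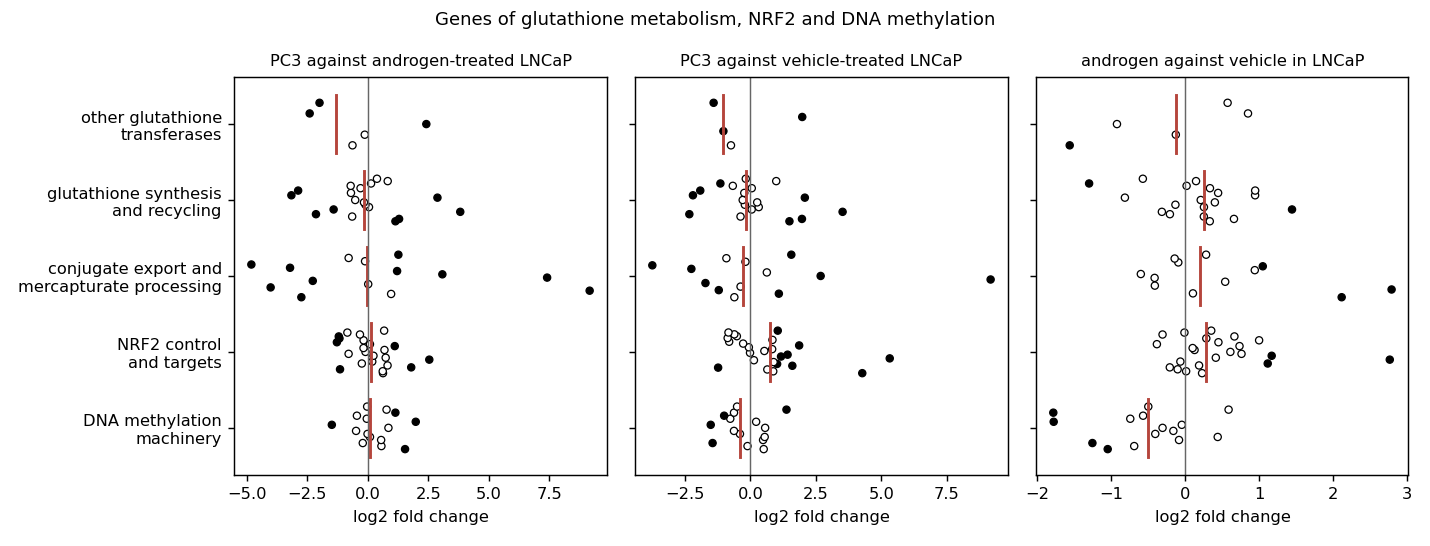
Log2 fold change of the tested genes of 5 lists in 3 comparisons, with 1 point per gene, filled where called, and a red bar at the median of the list. In each comparison with PC3 cells, 2 genes with a group of at most 3 counts per library are not drawn; list medians stay between -1.31 and 0.74.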

How the data were processed

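RNA of 9 libraries was sequenced after poly(A) selection. The authors deposited counts, whole reads per gene symbol, after trimming with cutadapt, alignment to hg38 with STAR, removal of duplicates with UMI-tools 1.1.2 and a further mapping (STAR 2.7.7a and cutadapt 4.1 in the submitters' processing notes). The paper's supplement names other versions of STAR and cutadapt. The annotation the authors used is not given in the sources used here. All 253944 values equalled the forward-strand STAR column, and 0 columns were left out. Reads not counted on a gene made up 20.3% to 25.4%. STAR's gene counts leave out reads that map to several places.

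Members and lists were chosen with earlier results of these data known. The text names the 10 members, per list and comparison the called gene with the largest rise and the largest fall above a mean of 3 CPM, and the 5 genes most like GSTP1, of which 1 is not reported here. edgeR 4.0.16 (R 4.3.3) tested each pair of groups on its own 6 libraries with TMM factors and the quasi-likelihood test, and p-values were adjusted by Benjamini-Hochberg over all genes tested. Standard errors are the log2 fold change divided by the root of F. The study's test had a batch term, left out because no source names the batches. Replicates of a group differed beyond sampling noise (chi-square per degree of freedom of 2.26 to 5.53 in LNCaP and 11.6 to 54.5 in PC3). The paper speaks of independent experiments in general and of a batch term for the sequencing, but ties neither to single libraries. The p-values therefore measure the spread between these libraries, which may be technical in part. Replicate numbers are shared, and deviations from the group means correlated at 0.193, 0.216 and 0.199 between same-numbered androgen-treated and vehicle-treated libraries over 11697 genes, so the numbers pair them as judged from the counts. Unless a block is named, the p-values printed leave this pairing out. Locations, canonical transcripts and 74-base stretches come from GENCODE 44 on GRCh38, which held 91.1% of the symbols. Promoters come from RefSeq on GRCh38.p14, with 9 of 10 members matched. The tests were checked on simulated data, and 200, 196 and 198 of 200 changed genes were recovered in the 3 comparisons (12177, 12293 and 11534 genes). The simulation gave all genes and both groups the same spread beyond counting noise, with changes above the fold change of 2. It held neither the wider spread of PC3 replicates nor genes near absent in a group, so it does not speak for these.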

Additional observations from a re-analysis of the deposited data

How the results depend on the processing

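Alternatives were DESeq2 size factors, the DESeq2 1.42.0 Wald test, edgeR's likelihood ratio test, the replicate block with either edgeR test, no filter, at least 10 counts in every library, unstranded counts, all 9 libraries in one fit and leaving out each library. The block with the likelihood ratio test, the adjusted p alone and the fits of GSTP1 without a filter were added after seeing the data. With at least 10 counts in every library, GSTP1, GSTM2 and GSTM4 were no longer tested, and 3 of 6 members were called between PC3 and androgen-treated cells (40% of all genes) and 4 of 6 between PC3 and vehicle-treated cells (36.7% of all genes). Without a filter, 7 and 8 of 10 members were called in the comparisons of the lines, GSTM1 being the one added, and 1 of 9 (GSTP1) between the LNCaP groups (42.9%, 41% and 14.4% of all genes). The adjusted p alone called 3 of 6 members between the LNCaP groups (74.9% of all genes). Leaving out each library gave 6 to 7, 7 to 7 and 0 to 0 called members. Of all genes, 45.6% to 46.5%, 42.7% to 44.3% and 13.7% to 14.4% were called in those fits. The replicate block gave 6, 7 and 0 members (45.9%, 43.3% and 14% of all genes), as without it, and changed no member's call. Same-numbered PC3 and LNCaP libraries did not deviate together (-0.0891 to 0.0137 with androgen, -0.0917 to 0.0335 with vehicle). The adjusted p alone called 10530, 10577 and 8763 genes in the 3 comparisons, and no filter 9147, 8713 and 2941, against 5773, 5485 and 1641. GSTK1 between the LNCaP groups changed sign without a filter (0.00042), without androgen-treated replicate 2 (0.0297) and without vehicle-treated replicate 1 (0.0093), and GSTO1 without vehicle-treated replicate 3 (-0.0035), and neither was called in any of these. Over the leave-one-out fits GSTK1 ranged from -0.0643 to 0.0297 and GSTO1 from -0.0035 to 0.0817. For GSTP1 without a filter, the replicate block gave 1.75 and the DESeq2 Wald test 1.81 (adjusted p 0.0595). Depth limits GSTM1, GSTM2 and GSTM4 in LNCaP cells, where 0 to 4 counts were seen per library.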
